A study of Prunus persica with 8 samples.

Results

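The WEEP region was taken as the stretch of peach chromosome Pp03 that holds the gene WEEP (Prupe.3G200700), with gene starts from 17.0 Mb to below 21.5 Mb. The stretch held 551 genes, of which 410 averaged 0.5 TPM or more across all 8 trees and were kept as region genes. TPM is a transcript level that accounts for the length of the gene and the size of the library. Of the other 141 genes, 47 were at 0 TPM in every tree. The genes just outside the limit were Prupe.3G165700 (mean 0.487 TPM) and Prupe.3G197000 (0.490 TPM), and those just inside were Prupe.3G190400 (0.503 TPM) and Prupe.3G162000 (0.517 TPM). The region genes are 2.04% of the 20055 genes that passed the same limit genome-wide, out of 26873 genes measured. The question was whether the neighbours of WEEP differed between trees in the same pattern as WEEP itself.

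WEEP encodes a protein with a sterile alpha motif (SAM), a domain that binds other proteins. In peach, recessive loss of WEEP is known to give weeping trees, whose shoots bend downward instead of growing up. TAC1, on chromosome Pp02, acts on the same trait in another way, as its activity widens the angle between branch and stem and its loss gives narrow, upright pillar trees. Genes that lie close together on a chromosome are usually inherited together within a family, so trees of a segregating population can share or differ in whole stretches.

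RNA was sequenced from branch tips of 4 pillar trees (numbered 4, 7, 8 and 10), which lack a working TAC1, and of 4 standard trees (7, 8, 9 and 10), a single library of unpaired 50-bp reads for each. All were mature, untreated, field-grown trees of 1 population, raised by selfing a tree heterozygous for the pillar trait. The pollen parent of that tree was the variety "Weeping White", and neither labels nor methods give the WEEP alleles of the 8 trees. Per the labels, the standard libraries had been used in an earlier study as well. The libraries held 18429259 to 23994336 reads on genes. Lane 8 held pillar trees 4 and 7 and lane 6 the remaining 6 trees, so lane and growth habit were partly confounded, and whether the trees were harvested together was not given. Reads from more than 1 cell type contribute to a branch tip, and fewer cells of a type cannot be told apart from less RNA per cell.

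WEEP lies on the minus strand of Pp03 from 20944039 to 20946994, in the coordinates of peach genome version 2. Levels per tree are given below in the order 4, 7, 8, 10 for pillar and 7, 8, 9, 10 for standard. WEEP stood at 39.2, 38.6, 64.5 and 34.9 TPM in the pillar trees, against 78.3, 70.8, 70.8 and 70.9 TPM in the standard trees. Every pillar tree was below every standard tree, but pillar tree 8 was much closer to the standard trees than to the other pillar trees. The mean was 44.3 ± 13.6 TPM for pillar against 72.7 ± 3.75 TPM for standard (SD, n = 4 trees each). The values rested on 878 to 2076 reads per tree.

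The log2 fold change of WEEP, pillar over standard, was -0.75 on the log2(TPM + 0.5) scale (standard error 0.18). In the limma fit over all 20055 genes the unadjusted p was 0.00271 and the Benjamini-Hochberg adjusted p was 0.585. The two-sided exact permutation test gave p = 0.0286, the smallest that 4 trees against 4 allow. The supplementary gene list of the study, Dataset S1, was chosen on these same trees and holds WEEP, so neither p is independent evidence. Without pillar tree 8 the log2 fold change was -0.94 and the limma adjusted p was 0.0237, whereas the adjusted p lay above the 0.05 threshold under each of the other 17 alternatives, with values up to 0.9996.

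In the order of its levels WEEP showed 1 wide gap, a 1.64-fold step between pillar trees 4, 7 and 10 on the low side and pillar tree 8 with the 4 standard trees on the high side. This division followed neither growth habit nor lane number. TAC1 (Prupe.2G194000) was low in all pillar trees, at 0.802, 0.830, 1.15 and 1.27 TPM, against 23.8, 17.2, 25.9 and 28.2 TPM in the standard trees. Pillar tree 8 thus had the low TAC1 of its growth habit together with a WEEP level near that of the standard trees. The lowest WEEP level was in pillar tree 10, whose header gives lane 6, as do those of the standard trees. Within lane 6 the log2 fold change of WEEP was -0.61 (2 pillar and 4 standard trees, limma adjusted p = 0.262).

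**Figure D1:**
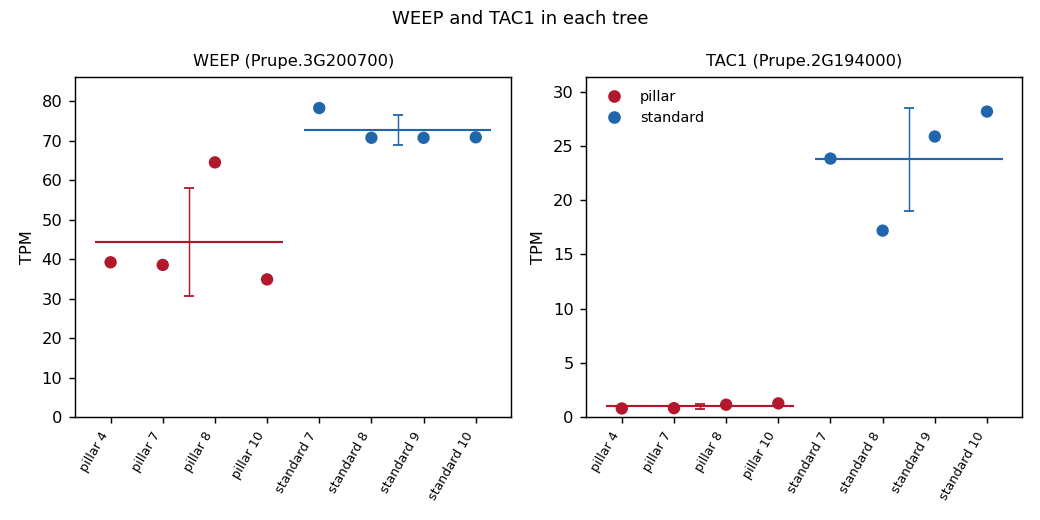
WEEP (left) and TAC1 (right) in TPM for each tree, pillar trees in red and standard trees in blue, with the group mean (line) and SD (bar, n = 4 trees). Pillar tree 8 sits at 64.5 TPM for WEEP, near the standard trees, while its TAC1 level of 1.15 TPM is that of a pillar tree.

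Over all 8 trees, the immediate neighbours did not repeat the WEEP pattern. The 5 region genes on each side start within 27.1 kb below and 38.7 kb above the start of WEEP. None of these 10 passed the test between growth habits (limma adjusted p of 0.902 to 0.944, and 0 with an unadjusted p under 0.05), and in each of them the levels of pillar and standard trees overlapped. Their Pearson r with WEEP on the log2 scale ran from -0.52 to 0.55 over the 8 trees, with a median of 0.17. Because the WEEP levels fall into a low set of 3 trees and a high set of 5, r is given throughout as a description of likeness, without a p.

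Prupe.3G200600, the closest gene below WEEP, had 19.4, 12.7, 11.4 and 10.3 TPM in the pillar trees, against 16.6, 12.4, 15.6 and 17.1 TPM in the standard trees. Its highest level was in pillar tree 4, where WEEP was low. On the other side, Prupe.3G200800 had 14.5, 10.5, 7.85 and 8.48 TPM in the pillar trees, against 11.4, 10.8, 10.4 and 12.7 TPM in the standard trees. Pillar tree 8, which had the highest WEEP of the pillar trees, was the lowest of all 8 trees for this gene. Prupe.3G200500, 15.3 kb below WEEP, was the neighbour with the most negative r (-0.52), with 15.5, 11.6, 4.68 and 7.61 TPM in the pillar trees, against 8.28, 5.90, 7.95 and 9.39 TPM in the standard trees. The pillar over standard log2 value, 0.20 (standard error 0.33), turned to -0.35 within lane 6. Prupe.3G200200 had the highest r of the 10 (0.55), at 1.19, 0.590, 1.60 and 1.62 TPM in the pillar trees, against 1.82, 1.65, 2.01 and 1.16 TPM in the standard trees, on only 5 to 20 reads per tree. Within lane 6 its r was 0.06. Pillar tree 10 is the only tree of the low WEEP set in that lane, so r there rests largely on it. Within lane 6, r was higher than over all 8 trees for Prupe.3G200300 (0.85), Prupe.3G201100 (0.85), Prupe.3G200600 (0.74), Prupe.3G201200 (0.68), Prupe.3G200800 (0.60) and Prupe.3G200500 (0.02). For Prupe.3G200400 (-0.66), Prupe.3G201000 (-0.51) and Prupe.3G201300 (-0.22) it was lower.

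The most abundant neighbour was Prupe.3G201000, 19.2 kb above WEEP, with 2452, 4042, 3762 and 3738 TPM in the pillar trees, against 2462, 2809, 3949 and 2987 TPM in the standard trees. It was lowest in pillar tree 4 and standard tree 7, of which the first had a low and the second a high WEEP level. These gene IDs carry no description in the sources used here.

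**Figure D2:**
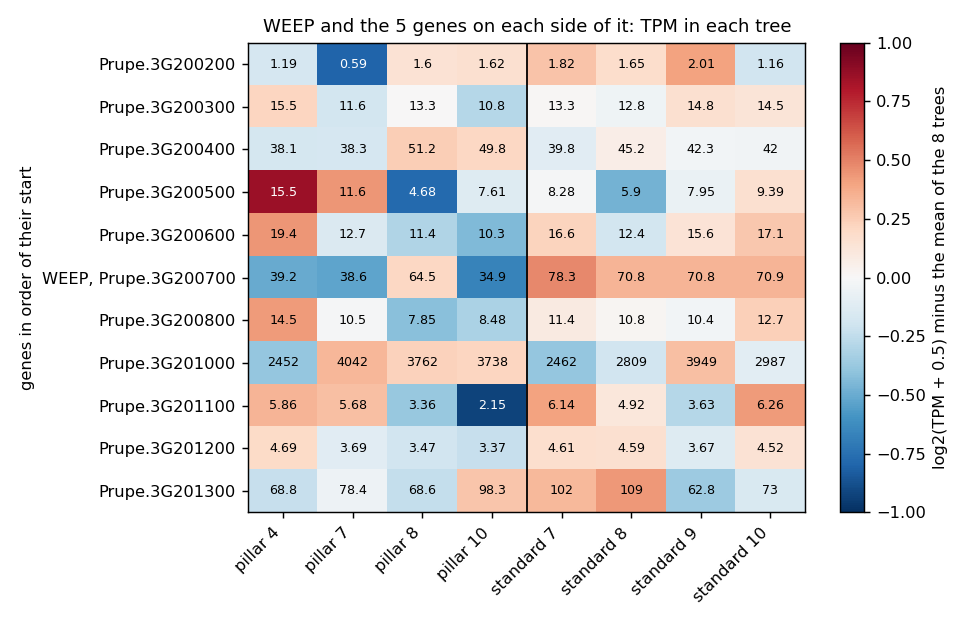
WEEP and the 5 region genes on each side of it, in order of position (rows), in each tree (columns, pillar left of the black line). The printed values are TPM and the colour is log2(TPM + 0.5) minus the mean of the 8 trees; only the WEEP row is low in pillar trees 4, 7 and 10 and high in the other 5 trees.

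Across the region, co-variation with WEEP was tested by a limma fit with the WEEP level of each tree as the regressor. No region gene passed, with 0 of 409 at an adjusted p under 0.05 (background 0%, or 0 of 20054 genes) and a lowest adjusted p of 0.9996. At an unadjusted p under 0.05 there were 24 region genes (5.87%) against 3.67% of all genes tested, 14 in the direction of WEEP (background 2.02%) and 10 in the opposite one (background 1.64%). Run with limma voom on the reads recovered from the TPM values, the adjusted count was also 0, and 31 (7.58%) had an unadjusted p under 0.05, against 4.19% of all genes. With growth habit as a second term, 0 of 409 passed the adjusted threshold (background 0.0748%) and 27 (6.6%) had an unadjusted p under 0.05, against 6.2% of all genes. The smallest adjusted p among region genes in that fit was 0.0825.

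An r of at least 0.7 with WEEP was found for 14 of the 409 other region genes (3.42%), against 2.58% of all genes, and an r of at most -0.7 for 7 (1.71%), against 1.34%. The median r was 0.17 in the region and 0.12 over all genes. Distance made little difference to the median, which was 0.20 for the 53 genes within 0.25 Mb of WEEP, 0.17 for the 112 within 0.5 Mb, 0.17 for the 176 within 1 Mb and 0.17 for the 282 within 2 Mb. In the 9 bins of 0.5 Mb that make up the region the median r ran from 0.05 to 0.30, and no bin held more than 3 genes with an r of at least 0.7. The highest r values of the genome lay elsewhere, on other chromosomes: Prupe.2G300800 (0.94), Prupe.2G145500 (0.94) and Prupe.4G188900 (0.94).

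Prupe.3G183200, 1.07 Mb below WEEP and not described, was the region gene most like WEEP (r = 0.90, and 0.83 within lane 6). It had 0.850, 1.30, 2.04 and 1.35 TPM in the pillar trees, against 5.41, 2.92, 3.79 and 5.17 TPM in the standard trees. Its widest gap, 1.38-fold, set pillar trees 4, 7 and 10 below all other trees, the same division as in WEEP. The groups did not overlap, but the counts were small (5 to 34 reads), and the gene overlaps the region of another gene. Next came Prupe.3G190600 (r = 0.87), on 13 to 29 reads, with 0.754, 1.01, 1.55 and 0.766 TPM in the pillar trees, against 1.36, 1.16, 1.35 and 1.30 TPM in the standard trees. Here pillar tree 8 was the highest of all 8 trees. Prupe.3G166500 (r = 0.87) was the best measured of these genes, with 17420 to 29961 reads. It had 719, 598, 854 and 700 TPM in the pillar trees, against 836, 817, 877 and 843 TPM in the standard trees. Pillar trees 4, 7 and 10 were the lowest, as for WEEP, but pillar tree 8 lay above standard trees 7, 8 and 10. Its largest step, only 1.17-fold, set pillar tree 7 apart from all other trees. Prupe.3G208400 (r = 0.85), 0.508 Mb above WEEP, ran from 5.84 to 9.89 TPM in the pillar trees, against 8.52 to 10.3 TPM in the standard trees, and Prupe.3G167400 (r = 0.77) from 18.2 to 30.1 TPM, against 23.4 to 27.2 TPM. In both, pillar tree 8 was the highest pillar tree, as it was for WEEP.

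Within 0.25 Mb of WEEP, 4 of 53 genes (7.55%, against 2.58% of all genes) had an r of at least 0.7. The share was 3.57% within 0.5 Mb, 3.98% within 1 Mb and 2.84% within 2 Mb. The 4 genes were Prupe.3G196500, Prupe.3G199200, Prupe.3G201400 and Prupe.3G201900, of which Prupe.3G199200 and Prupe.3G201900 were chosen after their values were seen. Prupe.3G201400, 40.6 kb above WEEP, had 59.0, 49.8, 65.0 and 42.3 TPM in the pillar trees, against 61.2, 62.1, 58.1 and 63.5 TPM in the standard trees. Pillar tree 4 lay among the standard trees for this gene, unlike for WEEP. Prupe.3G199200, 87.7 kb below WEEP, had 0.401, 5.72, 6.26 and 1.51 TPM in the pillar trees, against 6.0, 6.96, 5.79 and 6.42 TPM in the standard trees. It was low in pillar trees 4 and 10 only, while pillar tree 7, with a WEEP level as low as that of tree 4, was close to the standard trees. Leaving out pillar trees 7 and 10, the farthest from the median WEEP level, r was 0.34 for Prupe.3G201400, 0.33 for Prupe.3G201900 and 0.37 for Prupe.3G196500, against 0.79, 0.74 and 0.78 over all 8 trees. Within lane 6, which leaves out pillar trees 4 and 7, it was 0.93, 0.75 and 0.88 for the same genes. For Prupe.3G199200 it was 0.96 without pillar trees 7 and 10 and 0.97 within lane 6, against 0.72 over all 8 trees. Of the trees with low WEEP, only pillar tree 4 remains in the first case and only pillar tree 10 in the second. Each of these r values therefore rests largely on a single tree, and Prupe.3G199200 was low in both of those trees.

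**Figure D3:**
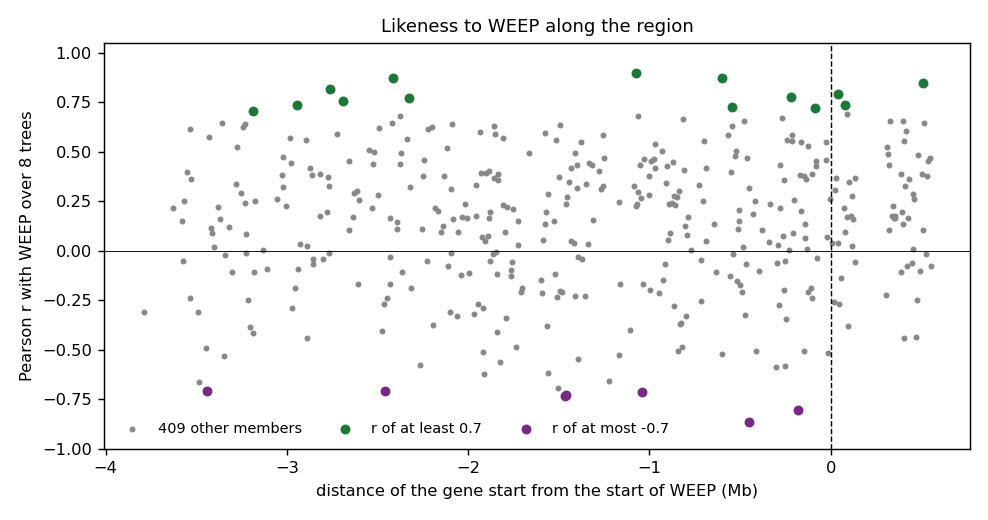
Pearson r with WEEP over the 8 trees (vertical axis) for the other 409 region genes, by the distance of their start from the start of WEEP in Mb (horizontal axis, dashed line at WEEP). The 14 genes with an r of at least 0.7 (green) and the 7 with an r of at most -0.7 (purple) are spread over the region.

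Among the genes that ran against WEEP, Prupe.3G193200 had the lowest r (-0.86), at 3.18, 3.80, 1.84 and 3.51 TPM in the pillar trees, against 2.39, 2.38, 2.49 and 2.23 TPM in the standard trees. Pillar trees 4, 7 and 10 were the highest and pillar tree 8 the lowest, with a step of 1.23-fold. Prupe.3G197200 (r = -0.81), 0.182 Mb below WEEP, matches Arabidopsis FLA2, a fasciclin-like arabinogalactan protein of the cell surface. It had 7.38, 3.32, 1.33 and 5.23 TPM in the pillar trees, against 1.56, 2.59, 1.34 and 2.93 TPM in the standard trees, so again pillar tree 8 was the lowest and the other pillar trees were the highest. Its limma adjusted p between growth habits was 0.902 (log2 fold change 0.74, standard error 0.43).

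A different division of the trees recurred in the region. When each gene's trees were put in order of level, 64 region genes had a widest gap of at least 1.5-fold (15.6%, against 15.1% of all genes), and in 44 of these (68.8%, against 59.2% over all genes with such a gap) it set a single tree apart. With a gap of at least 1.5-fold, the WEEP division, pillar trees 4, 7 and 10 against the rest, was found in 5 genes of the genome (0.0249%). In 3 of them those trees were low. WEEP was the only one of the 5 in the region, and 2 of the 5 were on Pp03. The other was Prupe.3G057300, 16.9 Mb below WEEP, which was high in those trees with a gap of 2.16-fold. Genes with this division at a smaller gap were not counted. Among them were the region genes Prupe.3G183200 (1.38-fold) and, in reverse, Prupe.3G193200 (1.23-fold). Outside the region, Prupe.2G300800, Prupe.2G145500 and Prupe.4G188900 also had it, at 1.13- to 1.38-fold. None of the region genes had a gap of at least 1.5-fold between pillar and standard trees (background 0.145%). By contrast, 5 region genes set pillar trees 4, 7 and 10 and standard tree 7 above pillar tree 8 and standard trees 8, 9 and 10. In either direction that division was found in 10 genes of the genome (0.0499%), in 9 with the same 4 trees high, and 7 of the 10 were on Pp03, which holds 11.5% of the genes tested. It was noticed in the data and is described without a test.

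Prupe.3G156600, an alpha/beta-hydrolase family gene 3.44 Mb below WEEP (Pp03, 17503392 to 17509706), varied most of all region genes. It had 19.0, 16.5, 0.436 and 18.0 TPM in the pillar trees, against 15.0, 0.144, 0.263 and 0.304 TPM in the standard trees. The lowest tree of the high set was 16.6-fold above the highest tree of the low set on the log2(TPM + 0.5) scale, with 801 to 1085 reads in the high trees and 8 to 25 in the low trees. Standard tree 7, the only standard tree in the high set, had the highest WEEP level of all trees, and pillar tree 8 was in the low set.

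Prupe.3G178100 and Prupe.3G178200 lie next to each other 1.47 and 1.46 Mb below WEEP, and both match Arabidopsis GSTF9, a phi-class glutathione S-transferase that joins glutathione to other compounds. Prupe.3G178200 was the abundant copy, with 542, 321, 190 and 350 TPM in the pillar trees, against 316, 142, 182 and 166 TPM in the standard trees. Prupe.3G178100 had 8.01, 3.98, 0.639 and 5.31 TPM in the pillar trees, against 4.07, 0.755, 0.367 and 0.354 TPM in the standard trees. The gap was 1.66-fold in Prupe.3G178200 and 3.57-fold in Prupe.3G178100. If these neighbours are near-identical, which was not examined, reads could have been divided between them, so the values of each copy are uncertain.

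Prupe.3G181400 (Pp03, 19721382 to 19725484), which has no description, had 8.28, 3.01, 0.0537 and 2.56 TPM in the pillar trees, against 3.70, 0.0277, 0 and 0 TPM in the standard trees. The 4 low trees had at most 2 reads each and the 4 high trees 95 to 285. Prupe.3G196000 (Pp03, 20692840 to 20696373), also without a description, had 17.7, 16.8, 2.65 and 8.58 TPM in the pillar trees, against 17.0, 2.41, 2.29 and 2.56 TPM in the standard trees. Of the 5 it was the closest to WEEP, 0.251 Mb below it.

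Together the 5 genes spanned 3.19 Mb, all below WEEP. Of the 32 region genes between Prupe.3G196000 and WEEP, 6 had a gap of at least 1.5-fold, and of the 61 region genes above WEEP 4 had one, none of them with this division. The 2 other Pp03 genes that shared it, Prupe.3G119100 (an O-methyltransferase family gene) and Prupe.3G126400 (an elongation factor family gene), lie 10.6 and 9.24 Mb below WEEP. In all 7 Pp03 genes the same 4 trees were the high ones. Their division and that of WEEP differed in a single tree, standard tree 7. With standard tree 7 left out, both divisions are the same by construction. The limma fit on the WEEP level then called Prupe.3G156600 alone of 20054 genes. Its slope was -5.12 log2 units per log2 unit of WEEP (standard error 0.30, adjusted p = 0.00246). With all 8 trees the limma adjusted p was 0.9996, and it ran up to 0.99997 over the alternatives. Because the tree left out is the one in which the divisions differ, the call is no evidence that the gene follows WEEP.

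**Figure D4:**
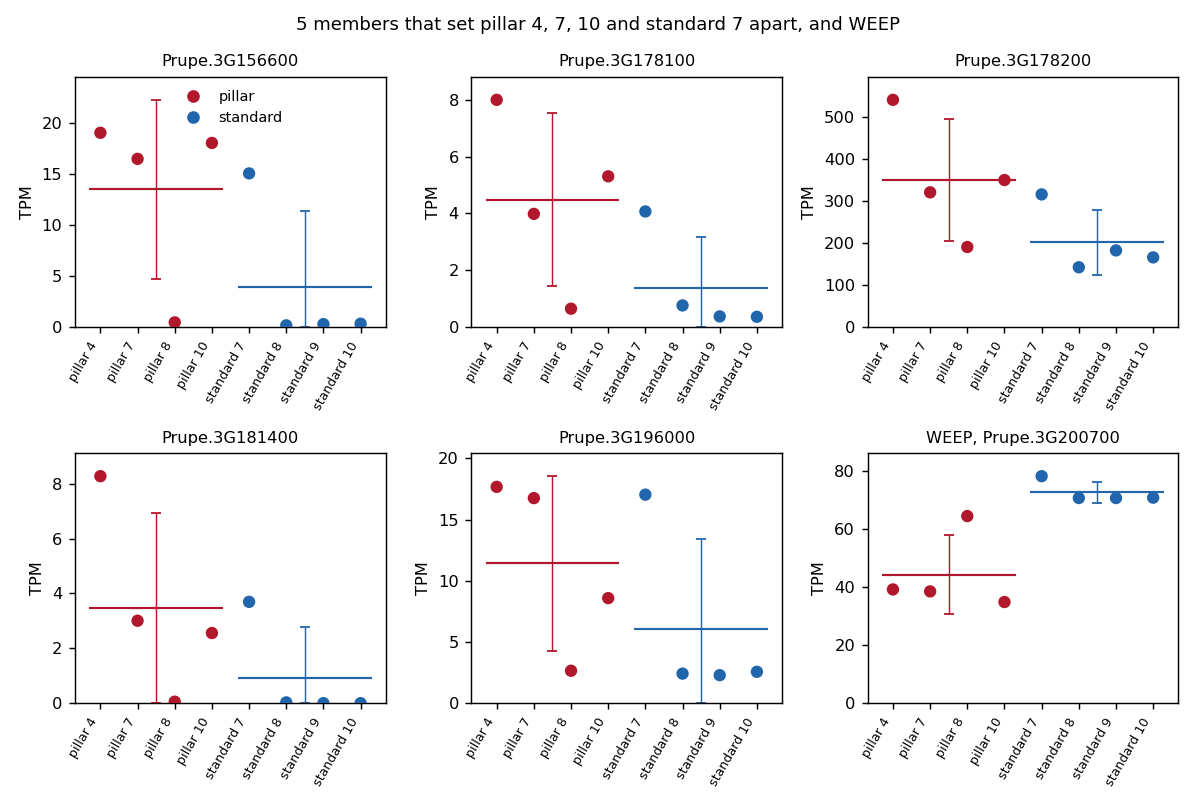
TPM in each tree for the 5 region genes that are high in pillar trees 4, 7 and 10 and standard tree 7, and for WEEP (bottom right), with the group mean (line) and SD (bar, cut at 0, n = 4 trees). Standard tree 7 joins pillar trees 4, 7 and 10 in the 5 genes, at 15.0 TPM in Prupe.3G156600, but has the highest WEEP level, 78.3 TPM.

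Pillar and standard trees were then compared over the whole region. In the limma fit 0 of 410 region genes had an adjusted p under 0.05 (background 0.12%, and 0.0598% in the lower direction of WEEP), 19 had an unadjusted p under 0.05 (4.63%, background 4.77%), and the lowest adjusted p was 0.246, in Prupe.3G183200. Limma voom on the recovered reads also gave 0, with 18 (4.39%) at an unadjusted p under 0.05, against 4.96% of all genes. The criteria of the study, a fold change over 1.5 at an unadjusted p up to 0.05, with both groups averaging 5 or more reads, were met by 8 region genes (1.95%, background 2.23%), 3 higher (background 1.12%) and 5 lower in pillar trees (background 1.11%). They were applied here to the limma p and fold change, not to those of the authors' own test. In 7 region genes the groups did not overlap (1.71%, background 2.93% in both directions together). All 7 were lower in pillar trees, the side on which 69.3% of all genes lay, and the background was not split by direction. Over the region 309 genes had a negative and 101 a positive log2 fold change. So 75.4% were on the lower side in pillar trees, against 69.3% of all genes, and the median was -0.10 against -0.09. The size of this lean depended on the scaling. The median was -0.062 against -0.053 with RPKM, and -0.056 against -0.046 with upper-quartile scaling. The spread between trees was also close to that of the genome, with a median SD of 0.287 on the log2 scale against 0.275. WEEP, at 0.479, was exceeded by 74 region genes.

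The region genes with the lowest fold changes included a pair of MYB transcription factor genes. Prupe.3G163000 and Prupe.3G163300, 2.76 and 2.69 Mb below WEEP, both match Arabidopsis MYB113, which turns on genes of anthocyanin pigment synthesis. Prupe.3G163000 had 2.16, 2.07, 6.08 and 3.89 TPM in the pillar trees, against 10.1, 29.4, 7.64 and 14.9 TPM in the standard trees, with no overlap between the groups. Prupe.3G163300 had 0.701, 0.528, 1.69 and 0.949 TPM in the pillar trees, against 3.68, 9.98, 1.5 and 2.84 TPM in the standard trees, where pillar tree 8 lay above standard tree 9. Both were highest in standard tree 8. Their log2 fold changes were -1.91 (standard error 0.44, limma adjusted p = 0.459) and -1.56 (standard error 0.47, adjusted p = 0.823), so neither passed the test, and reads may have been shared between these copies too. Prupe.3G159000 had the lowest log2 fold change of the region (-2.13, standard error 0.86, adjusted p = 0.902), at 0, 0, 1.81 and 0 TPM in the pillar trees, against 0.283, 13.7, 1.68 and 3.92 TPM in the standard trees. It was highest in standard tree 8, without which the log2 fold change was -1.42, and it overlaps another gene. Prupe.3G176800, among the 5 most variable genes, and Prupe.3G158000, among the 5 lowest fold changes, were at 0 TPM in pillar tree 4 alone. They ran up to 7.91 and 3.53 TPM in the pillar trees, against 2.85 to 9.11 TPM and 1.07 to 6.64 TPM in the standard trees.

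At the other end, the 5 highest log2 fold changes were 2.47 in Prupe.3G156600, 1.64 in Prupe.3G181400, 1.47 in Prupe.3G178100, 1.32 in Prupe.3G183900 and 1.09 in Prupe.3G196000, all with a limma adjusted p of 0.902. All but Prupe.3G183900 belong to the 5 genes in which standard tree 7 was in the high set with pillar trees 4, 7 and 10. Prupe.3G183900, an N-terminal nucleophile hydrolase family gene, had 5.18, 1.93, 3.40 and 6.48 TPM in the pillar trees, against 0.255, 1.95, 1.64 and 1.95 TPM in the standard trees. Here standard tree 7 was the lowest of all trees and pillar tree 7 lay among the other standard trees.

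Dataset S1 holds 12 region genes, WEEP included. The paper selected them on these trees, so their directions are no separate evidence. Of the other 11, 8 had a positive and 3 a negative log2 fold change here, 6 of the 11 had an r of at most -0.7 with WEEP and 3 an r of at least 0.7 (1.34% and 2.58% of all genes). They had been picked for a difference between pillar and standard trees, which WEEP shares. In the limma fit WEEP met the criteria of the study. Of the other 11 genes, only 2 higher and 3 lower in pillar trees met them. The aspartyl protease gene Prupe.3G165900 had 192, 187, 88.2 and 143 TPM in the pillar trees, against 114, 89.9, 53.9 and 134 TPM in the standard trees, with overlapping groups (log2 fold change 0.65, standard error 0.33, limma adjusted p = 0.902). Prupe.3G164200, an ARM repeat family gene, was high in pillar trees 4 and 8 (5.85 and 4.67 TPM) and lower in pillar trees 7 and 10 (1.06 and 0.624 TPM) and in all standard trees (0.659 to 1.18 TPM). Prupe.3G208800 matches Arabidopsis MPL1, a lipase induced by feeding of the aphid Myzus persicae. It had 0.172, 8.88, 3.77 and 0.506 TPM in the pillar trees, against 0.913, 2.03, 0.374 and 1.34 TPM in the standard trees, so a single tree, pillar tree 7, set its positive log2 fold change of 0.56, which was -0.12 without that tree.

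**Figure D5:**
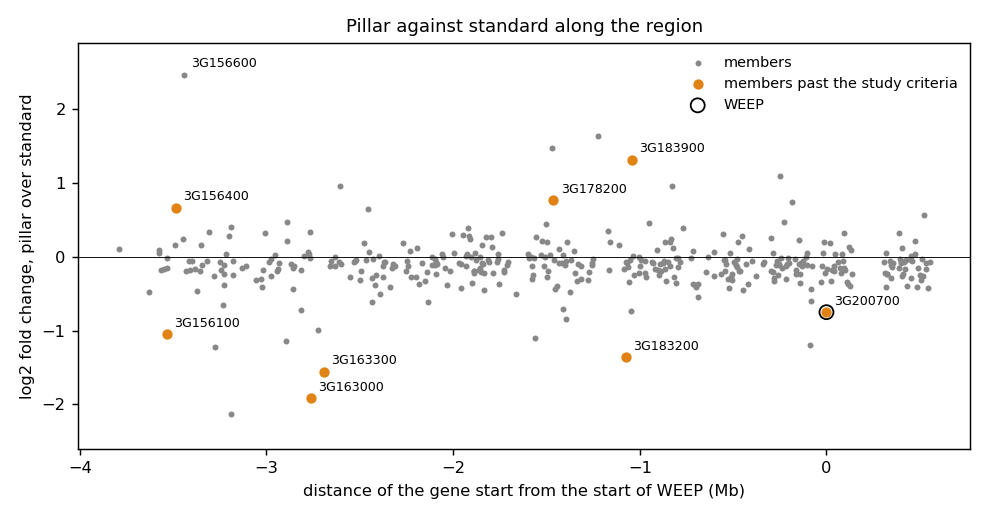
Log2 fold change, pillar over standard, of the 410 region genes (vertical axis) by distance from the start of WEEP in Mb (horizontal axis). The 8 genes past the criteria of the study (orange) lie scattered from -3.53 Mb to WEEP itself (circled, -0.75), and labels give gene IDs without the prefix.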

How the data were processed

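Unpaired 50-bp reads were trimmed and mapped by the authors in CLC Genomics Workbench, on version 2 of the peach genome. The deposited table gives TPM per gene and tree, although RPKM is what the methods name. Of its 53746 rows, the 26873 second rows per gene, all at 0, were not used. The authors' own comparison (a signed fold score, its log2 value, p-values and a mean signal of the larger group) was not used. Gene lengths are whole gene regions, introns included. Of the region genes, 54 overlap another gene, so reads may have been shared.

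TPM times length gave whole reads within 0.05 reads for 100% of nonzero values under 10000 reads. These reads served for depth (18429259 to 23994336 per tree), RPKM and voom. Genes with few reads carry counting error beside the spread between trees.

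Limma 3.58.1 in R 4.3.3 (lmFit, eBayes with a trend) was run on log2(TPM + 0.5) for the 20055 genes averaging 0.5 TPM or more, for growth habit and for the centred WEEP level, with Benjamini-Hochberg adjustment over all genes, and was tested on simulated data. A fold change on this scale understates changes of low genes. P-values measure the spread between single trees, 1 library each. Python 3.11.15 with scipy 1.17.1 gave the exact permutation test. A gap is the widest step between neighbouring trees on the log2 scale, called at 1.5-fold.

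The members and lists were chosen with earlier results of these data known. Named genes are WEEP, the 5 genes on each side, the 5 highest and 5 lowest fold changes, the 8 highest and 4 lowest r, the 3 highest r elsewhere, the 5 largest SDs, Dataset S1 genes and TAC1, and the genes of the 4-tree division were added after it was seen. Descriptions come from Dataset S1. Lists by RefSeq description (branch-angle genes, tissue markers) could not be formed, because the reference table used here did not match these gene IDs. Alternatives were RPKM, upper-quartile scaling, a pseudocount of 0.1 or 1, no filter, 5 reads in each group, voom, lane 6 only, a replicate block and leaving out each tree.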

Additional observations from a re-analysis of the deposited data

Results flagged for a closer look

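In each growth habit, a tree whose level lay far from the other 3 was looked for in the 38 named genes. Of 76 groups of 4 trees 10 held such a tree, where chance gives about 1 in 20 groups of genes picked without regard to their values. Many named genes were picked for large differences, and those of the 4-tree division for standard tree 7 itself, so neither this number nor the trees involved can be read against that rate. Standard tree 7 was the highest standard tree for WEEP (78.3 TPM, the others 70.8 to 70.9), Prupe.3G156600 (15.0 TPM, the others 0.144 to 0.304), Prupe.3G181400 (3.70 TPM, the others 0 to 0.0277) and Prupe.3G196000 (17.0 TPM, the others 2.29 to 2.56), and the lowest for Prupe.3G183900 (0.255 TPM, the others 1.64 to 1.95). Pillar tree 8 was the lowest pillar tree for Prupe.3G156600 (0.436 TPM, the others 16.5 to 19.0) and the only one above 0 for Prupe.3G159000 (1.81 TPM). Pillar tree 4 was the lowest pillar tree for Prupe.3G201000 (2452 TPM, the others 3738 to 4042). Standard tree 9 was the lowest standard tree for Prupe.3G201200 (3.67 TPM, the others 4.52 to 4.61), and standard tree 8 for Prupe.3G208400 (8.52 TPM, the others 10.0 to 10.3).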

How the results depend on the processing

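The log2 fold change of WEEP stayed negative under all 18 alternatives, between -0.94 and -0.65 with 1 tree left out. It passed the adjusted threshold only without pillar tree 8 (-0.94). The count of region genes past the adjusted threshold between growth habits was 0 to 1 with 1 tree left out (1, WEEP, without pillar tree 8), and that of genes co-varying with WEEP was 0 to 1 (1, Prupe.3G156600, without standard tree 7). The 8 genes past the criteria of the study became 5 to 18 with 1 tree left out (18 without standard tree 7, 14 without pillar tree 8, 13 without pillar tree 4 and 5 without standard tree 9) and 25 within lane 6. The share meeting the criteria was 6.10% of region genes against 6.11% of all genes within lane 6, 4.39% against 2.39% without standard tree 7, 3.41% against 2.53% without pillar tree 8, 3.17% against 3.72% without pillar tree 4 and 1.22% against 2.06% without standard tree 9. The labels do not say whether the replicate numbers pair the trees. Same-numbered trees correlated at 0.29 (tree 7), 0.10 (tree 8) and -0.09 (tree 10) in their deviations from the group means, and differently numbered trees are not given for comparison. With the tree number as a replicate block (6 trees), WEEP was at -0.72 (limma adjusted p = 0.288, against 0.363 without the block) and 15 region genes met the criteria (3.66%, against 5.45% of all genes), where the same 6 trees without the block gave 11 (2.68%, against 4.46%).

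The tree divisions were noticed in the data, and their alternatives were chosen after seeing the data. All 5 genes of the 4-tree division kept it under every alternative, except that 4 did with a 2-fold gap and 4 without pillar tree 10. WEEP kept its own except with a 2-fold gap. At a 2-fold gap 22 region genes had a wide gap (5.37%, against 4.92% of all genes) and 3 genes of the genome the WEEP division. With fewer trees a division is met more easily: with 1 tree left out, 14 to 40 genes of the genome had the 4-tree division and 5 to 51 that of WEEP, and within lane 6 the numbers were 83 and 249, with 12 genes of the 4-tree division on Pp03.

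Of the named genes besides WEEP, 5 changed direction. With 1 tree left out, Prupe.3G200400 ran from -0.0197 (without pillar tree 8; -0.00661 without pillar tree 10) to 0.121, Prupe.3G200500 from -0.0544 (without pillar tree 4) to 0.489, Prupe.3G201300 from -0.264 to 0.00178 (without standard tree 8) and Prupe.3G208800 from -0.120 (without pillar tree 7) to 1.15. Prupe.3G200500 was at -0.353 within lane 6 and at -0.0445 in the 6 trees with and without the block, and Prupe.3G167400 at 0.00968 within lane 6. The cause of these changes was not tested. Genes with fewer than 40 reads in every tree, such as Prupe.3G183200 and Prupe.3G190600, are limited by counting error.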

Other observations

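Pillar tree 8 was also set apart by itself. In 8 of the 64 region genes with a gap of at least 1.5-fold it was the single high tree, as it was in 183 of the 3020 such genes of the genome. These 8 genes were found after the values were seen and were not tested. Prupe.3G161500, 2.89 Mb below WEEP, had 375, 307, 923 and 420 TPM in the pillar trees, against 357, 233, 586 and 244 TPM in the standard trees, a gap of 1.58-fold. Prupe.3G171500, 1.93 Mb below WEEP, had 1.46, 3.99, 9.66 and 3.13 TPM in the pillar trees, against 3.03, 4.09, 4.57 and 3.28 TPM in the standard trees, a gap of 2.00-fold. Neither was close to WEEP in pattern, with an r of 0.02 and 0.39 over the 8 trees. Prupe.3G198500 and Prupe.3G196400, also among the 8 genes, lie nearer to WEEP, 0.127 and 0.229 Mb below it. Their gaps were 1.67- and 1.56-fold, and their r with WEEP was 0.53 and 0.0025.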
